A study of Homo sapiens with 16 samples.

Results

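Hexosamine and N-glycosylation enzymes were followed as 45 genes, chosen by name for their place in the pathway from amino sugar synthesis to the trimming of protein-bound glycans. The choice was made with earlier results of these data known. All 45 were listed among the 17738 genes of the expression table, and all 45 passed a filter on low values that kept 16714 genes. They were measured by RNA sequencing of H1, an established wild-type human embryonic stem cell line. Every group was kept for 24 h in E7, a serum-free base that holds insulin, transferrin and FGF2 and equals E8 without TGFb. The 8 groups, of 2 libraries each, crossed 4 media with the presence or absence of 3 mM 2-deoxyglucose (2DG). The media were E7 alone and E7 holding 1.74 ng/mL TGFb, 100 ng/mL Activin A or 100 ng/mL NODAL. Because all libraries came from 1 line, and the labels do not say whether replicates were separate cultures, p-values measure only the spread between these samples. Values are read counts divided by 1 size factor per library, called normalised reads below.

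As background, the hexosamine pathway turns fructose 6-phosphate into UDP-GlcNAc, the donor for O-GlcNAc on nuclear and cytosolic proteins and for the first sugars of N-glycans. N-glycans are built on the lipid dolichol in the endoplasmic reticulum from UDP-GlcNAc, GDP-mannose and glucose, moved to nascent proteins by oligosaccharyltransferase, then trimmed and read by folding chaperones. 2DG inhibits glycolysis and, since glucose and mannose differ only at the carbon where 2DG lacks a hydroxyl, also acts as a mannose analog that can enter these lipid-linked chains.

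GFPT1, STT3A and DHDDS were the members whose 8 libraries with 2DG all lay above the 8 without it. For that reason, sequence at the start sites given by RefSeq is shown for them. How many of all genes separate in this way was not counted, so the separation is not read as particular to these members. ALG12 is shown because its promoter held the only match among the members to the endoplasmic reticulum stress element (ERSE), which the stress factors ATF6 and XBP1 are known to bind with NFY. The sequences are from RefSeq, build GRCh38.p14, written 5′ to 3′ along the gene's strand and cut to bases outside annotated exons, except DHDDS, which is given as 30 bases around its match. They span chr2:69387255-69387477 on the minus strand for GFPT1, chr11:125592602-125592794 on the plus strand for STT3A, chr22:49918459-49918634 on the minus strand for ALG12 and chr1:26432303-26432332 on the plus strand for DHDDS. Capitals mark the ERSE in ALG12 and, in DHDDS, the other strand's match to TGACGTGG, the core of the unfolded protein response element (UPRE).
GFPT1: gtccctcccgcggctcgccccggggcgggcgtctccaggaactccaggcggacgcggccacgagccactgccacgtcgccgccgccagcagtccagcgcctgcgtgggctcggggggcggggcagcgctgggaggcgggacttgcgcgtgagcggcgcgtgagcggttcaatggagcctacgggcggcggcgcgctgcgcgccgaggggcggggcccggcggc
STT3A: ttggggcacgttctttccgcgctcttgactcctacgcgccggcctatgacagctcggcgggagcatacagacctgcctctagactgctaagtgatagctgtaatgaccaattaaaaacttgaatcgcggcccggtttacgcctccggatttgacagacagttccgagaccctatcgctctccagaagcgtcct
ALG12: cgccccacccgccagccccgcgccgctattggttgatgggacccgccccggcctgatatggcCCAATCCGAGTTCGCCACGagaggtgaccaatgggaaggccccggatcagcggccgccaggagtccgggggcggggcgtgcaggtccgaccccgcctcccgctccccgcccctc
DHDDS: ttctgccagcgCCACGTCAtgaggaagtgc

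Promoters of 250 bases before to 50 after the start site were found for 39 of the 45 members, without ALG10, STT3B, RPN1, TUSC3, MOGS and MAN1A2. Each was searched on both strands for 4 motifs. The ERSE, taken as CCAAT and CCACG held 9 bases apart, was in 22 of 27305 promoters (0.0806%) and in 1 member, ALG12, from -134 to -116. The UPRE core TGACGTGG was in 0.795% of all promoters and in 1 member, DHDDS, from -7 to 1. The ATF/CRE site TGACGTCA was in 1.98% of all promoters, and the ATF4 composite element TGATGNAAT in 1.02%, and neither was in a member. Among the 11105 promoters of genes that passed the filter, the shares were 0.126%, 0.973%, 3.18% and 0.441% in the same order. With 39 promoters, 0 or 1 match is too few to set against these shares. GFPT1 and STT3A held none of the 4. These are letter matches in short windows, and nothing is read from them about a factor's binding.

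With 2DG, averaged over the 4 media, 21 of the 45 members were called higher and 4 lower, where a call is a limma adjusted p under 0.05. That is 46.7% and 8.89% of the members, against 19.2% and 19.4% of all genes tested. These shares do not allow for the members' smaller differences between replicates, given below. The members' median log2 difference was 0.13, and that of all genes was -0.001. In the 4 media, whose comparisons use separate libraries, 17 members (37.8%) lay above 0 every time and 5 (11.1%) below 0 every time, compared with 19.7% and 19.3% of all genes. The members' share of all reads was 0.355 to 0.383% in the 8 libraries without 2DG and 0.39 to 0.436% in the 8 with it, with no overlap. This share is a sum in which the members with many reads weigh most. Leaving out any 1 library gave 21 to 32 members called. With the 4 Activin A libraries left out, an alternative added after seeing the data, 26 were higher and 4 lower. Of all genes 7882 were then called, beside 6455 with them, and that count also moved when 1 library was left out.

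**Figure D1:**
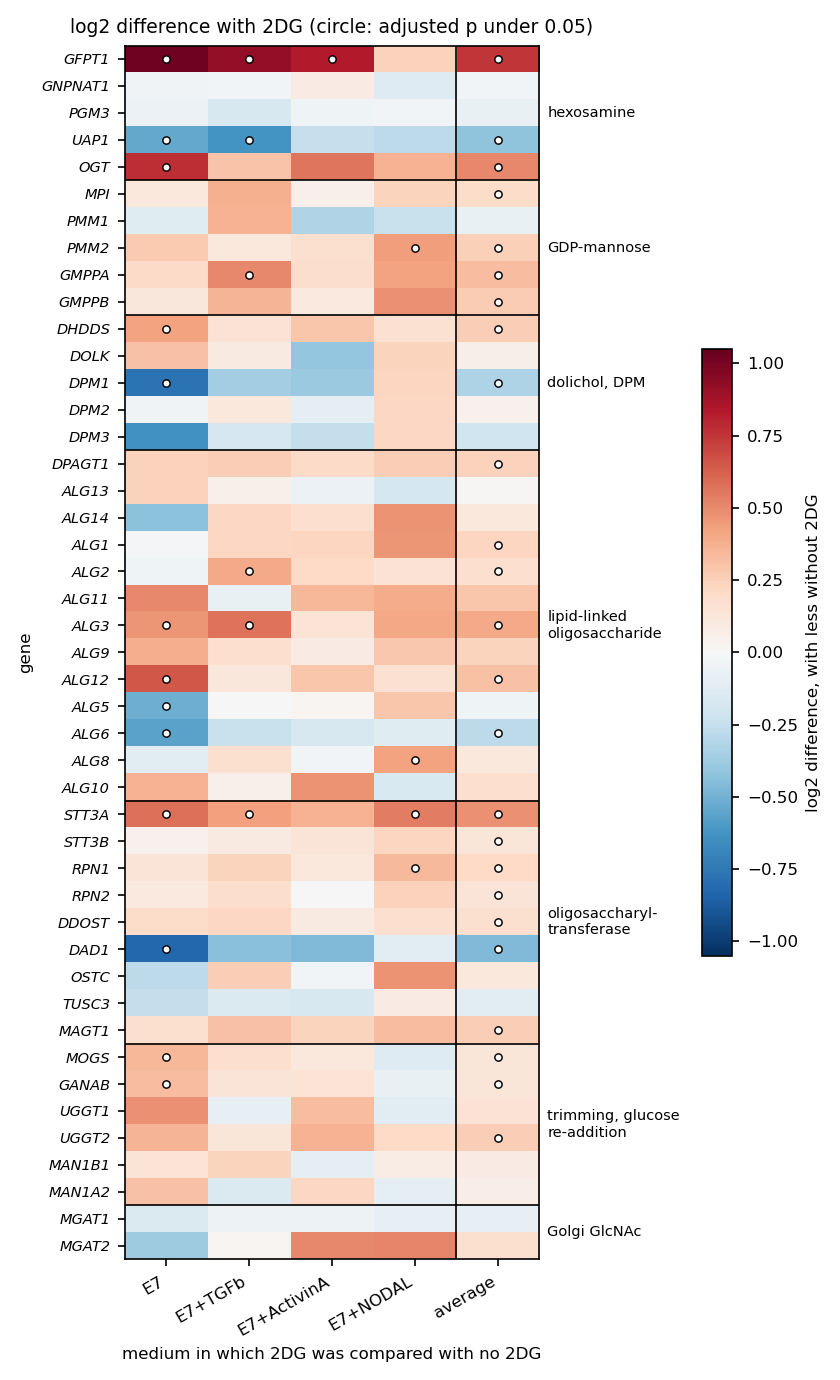
Log2 difference with less without 2DG for the 45 genes (vertical, ordered by role) in the 4 media and on average (horizontal), with a circle where limma's adjusted p was under 0.05. GFPT1, OGT and STT3A are red across the media, UAP1, ALG6 and DAD1 are blue, and the averaged column has 21 circles on red and 4 on blue.

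The libraries held 14600479 to 17630329 reads, and mitochondrial genes took 5.46 to 6.69% of them. Replicates differed most in E7+ActivinA, where chi-square per degree of freedom was 57.3 over all genes, against 1.6 to 15.8 in the other groups. The members' median absolute log2 difference between replicates was 0.244 there and 0.0652 to 0.149 elsewhere. For all genes it was 0.373 there and 0.104 to 0.221 elsewhere, above that of the members in every group. Stem cell markers, among them POU5F1 (31410 normalised reads or more) and LIN28A (24610 or more), were present in every library, and the summed level of the 10 was 142300 to 177500 without and 137500 to 164300 with 2DG, with 2 called higher and 2 lower on average. Averaged over the media, 2DG gave 1 call higher and 3 lower among 5 of 8 fibroblast markers, 0 and 1 among 5 of 6 neuroectoderm markers, 0 and 5 among 5 of 7 mesendoderm markers, and 1 and 1 among 3 of 6 trophoblast markers. The sums without and with 2DG were 4011 to 5316 and 3359 to 4261 for fibroblast, 8495 to 10620 and 7880 to 12100 for neuroectoderm, 189.6 to 1727 and 58.72 to 1481 for mesendoderm, and 57.23 to 121.8 and 60.18 to 155.9 for trophoblast. All 17738 genes listed had a read in every library, so no marker measured here could be at 0. COL3A1, DCN, LUM, HES5, SOX17, GATA6, CDX2, CGA and HAND1 were not among those genes. The part of these cell types in the results was not tested. In bulk RNA fewer cells of a type and less RNA per cell cannot be told apart.

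The hexosamine enzymes split, with GFPT1 and OGT higher, UAP1 lower and GNPNAT1 and PGM3 not called. GFPT1 encodes the glutamine-fructose 6-phosphate amidotransferase that commits sugar to the pathway (chromosome 2, 69319769 to 69387254, minus strand). It stood at 1994 and 1902 normalised reads in E7 and at 3993 and 3921 in E7+2DG. It was 2122 and 2190.45 in E7+TGFb, and 4043 and 4125 in E7+TGFb+2DG. With Activin A it was 2056 and 2514 without 2DG and 3009 and 5433 with it. The 2DG libraries were higher in each of these media, although the Activin A pair with 2DG lay far apart. With NODAL it was 2308 and 2411 without 2DG and 2718 and 2862 with it, the smallest gap of the 4. The log2 differences were 1.02 in E7 (SE 0.188, limma adjusted p = 0.00206), 0.92 with TGFb (adjusted p = 0.00846), 0.83 with Activin A (adjusted p = 0.043) and 0.24 with NODAL (adjusted p = 0.508). On average GFPT1 rose 1.69-fold (log2 0.75, SE 0.0938, adjusted p = 4.95e-05). Of the 16 fits that each left out 1 library, those without a library of the TGFb comparison lost the TGFb call (adjusted p up to 0.0734). The Activin A call was kept without replicate 2 of E7+ActivinA or replicate 1 of E7+ActivinA+2DG and lost in the other 14, with adjusted p from 3.47e-05 to 0.401, and it was also lost with only the libraries of its contrast. The NODAL response less that in E7 was -0.78 (SE 0.265, limma adjusted p = 0.0912), so a difference between the media was not called.

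UAP1 encodes the pyrophosphorylase that makes UDP-GlcNAc in the last step of the pathway (chromosome 1, 162561506 to 162599842, plus strand). It was 969.9 and 986 normalised reads in E7 and 694 and 657 in E7+2DG. It was 866 and 884 in E7+TGFb, and 530.3 and 606 in E7+TGFb+2DG. The pairs were 998 and 956 against 901 and 755 with Activin A, and 836 and 805 against 647 and 706 with NODAL. Within each medium both libraries with 2DG lay under both without it. UAP1 fell by 0.53 on the log2 scale in E7 (adjusted p = 0.00304) and by 0.63 with TGFb (adjusted p = 0.00286). The differences of -0.24 with Activin A and -0.28 with NODAL were not called (limma adjusted p = 0.22 and 0.141). Averaged, UAP1 fell by 0.42 (SE 0.0527, adjusted p = 5.26e-05). The TGFb call was lost without replicate 1 of E7+TGFb+2DG (adjusted p = 0.0525, the highest of the single-library fits, which began at 0.000323). OGT, the transferase that places O-GlcNAc on proteins, had 3863 to 6180.0 normalised reads with 2DG (median 5336) and 2327 to 4491 without (median 3361). Its averaged log2 rise was 0.50 (SE 0.106, adjusted p = 0.00227), and among the single media it was called in E7 (0.77). That E7 call was lost without replicate 2 of E7 or replicate 1 of E7+2DG, with adjusted p up to 0.12. The middle steps, the acetyltransferase GNPNAT1 and the mutase PGM3, had averaged differences of -0.03 and -0.08, neither called (adjusted p = 0.704 and 0.208).

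**Figure D2:**
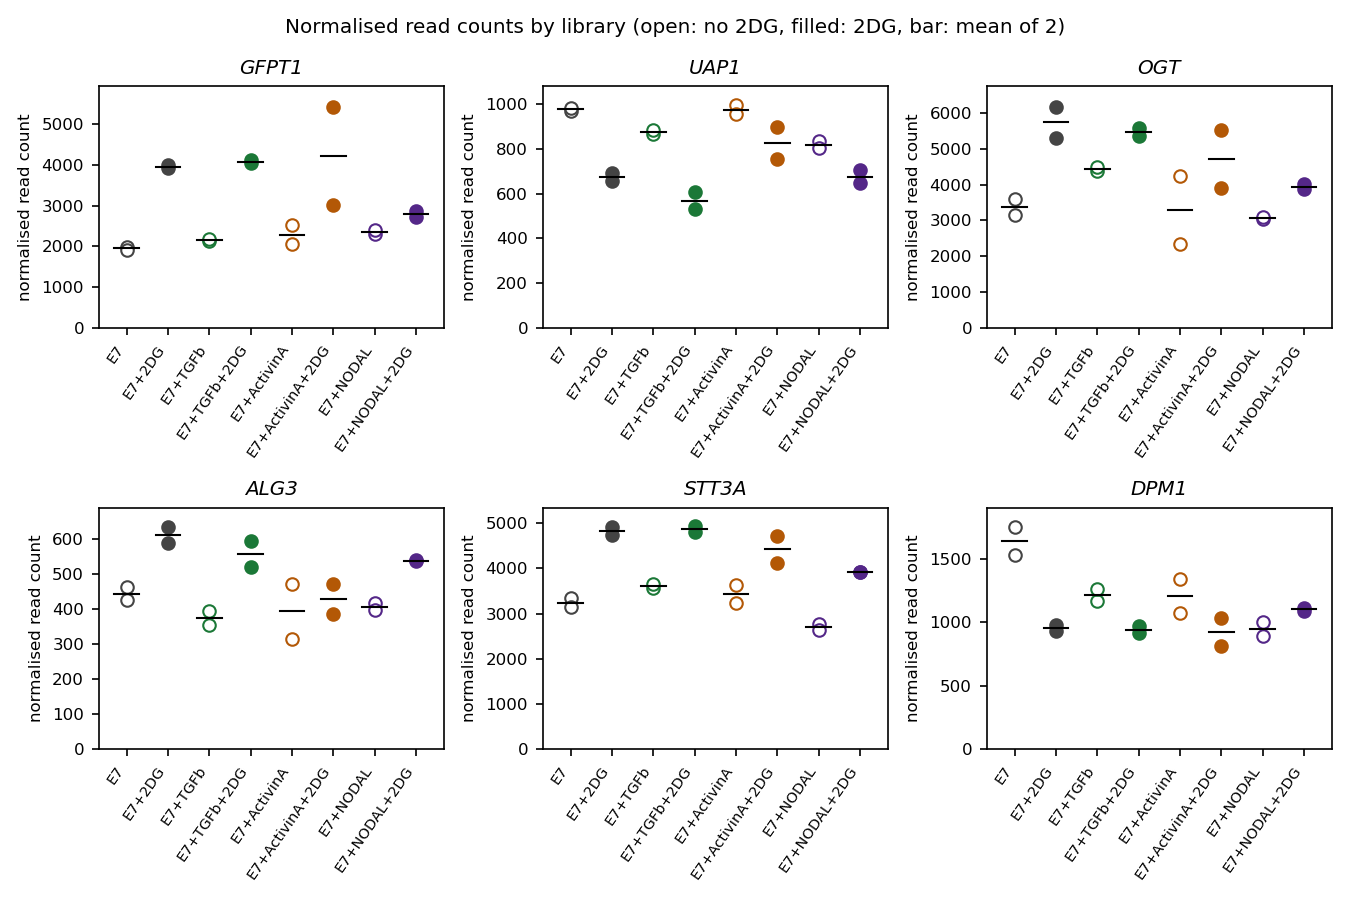
Normalised read counts (vertical, from 0) of GFPT1, UAP1, OGT, ALG3, STT3A and DPM1 in each of the 16 libraries by group (horizontal), open without and filled with 2DG, the bar being the mean of 2. GFPT1 and STT3A have all filled points above all open ones, and DPM1 is highest in the 2 E7 libraries at 1532 and 1749.

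Of the 5 enzymes that make GDP-mannose, the mannose donor, 4 were called higher on average and none lower, where 19.2% of all genes were called higher. In E7 and with Activin A none of the 5 was called. GMPPA, the regulatory subunit of GDP-mannose pyrophosphorylase, rose by 0.33 on the log2 scale and its catalytic partner GMPPB by 0.27. PMM2, which turns mannose 6-phosphate into mannose 1-phosphate, rose by 0.25, and MPI, which links fructose 6-phosphate to mannose 6-phosphate, by 0.19. All 4 lay above 0 in every medium, with limma adjusted p from 0.00227 (GMPPA) to 0.0162 (MPI), although the 8 libraries with and the 8 without 2DG overlapped for each. PMM1, a second mutase at 57.4 to 154 normalised reads, had -0.08 (adjusted p = 0.731). In single media GMPPA was called with TGFb (0.50) and PMM2 with NODAL (0.44). The GMPPA call was kept without any 1 library of E7, E7+NODAL or the Activin A groups and lost without any other (adjusted p up to 0.263). The PMM2 call was kept only without an Activin A library (adjusted p up to 0.29 without others) and was lost with equal totals. MPI, GMPPB and PMM2 share exon bases with other genes, FAM219B, RNF123 and AC022167.2, and without a stated strand setting reads there cannot be told apart. FAM219B itself rose by 0.55 and RNF123 by 0.30, while AC022167.2 had -0.01 (limma adjusted p = 0.00103, 0.0449 and 0.945).

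The dolichol genes were mixed. DHDDS, the catalytic subunit of the prenyltransferase that makes the dolichol chain, ranged from 545 to 641 normalised reads with 2DG and from 412 to 525 without. The ranges did not overlap, and the averaged log2 rise was 0.26 (SE 0.0594, adjusted p = 0.00423). DOLK, which phosphorylates dolichol, had 0.06, and DPM2 and DPM3, the membrane subunits of dolichol-phosphate mannose synthase, had 0.05 and -0.21, none of them called (limma adjusted p = 0.531, 0.668 and 0.277). DPM1, the catalytic subunit of that synthase (chromosome 20, 50934867 to 50958555, minus strand), behaved differently by medium. In E7 it was 1532 and 1749 normalised reads, and in E7+2DG 981 and 929.8. With TGFb the pairs were 1165 and 1264 without 2DG and 912 and 973 with it, and with Activin A 1342 and 1072 without and 1030.5 and 815 with it. With NODAL it was 998 and 891 without 2DG and 1113 and 1088 with it. DPM1 was thus lower with 2DG in 3 media and higher in the NODAL medium, in each case without overlap of the pairs. It fell by 0.78 in E7 (log2, SE 0.131, limma adjusted p = 0.00133), and the averaged fall was 0.33 (adjusted p = 0.00162). With TGFb, Activin A and NODAL the differences of -0.37, -0.39 and 0.22 were not called (adjusted p = 0.0986, 0.14 and 0.36). Other members also lay below 0 in E7 and above 0 with NODAL, among them DPM3 (-0.64 and 0.22) and ALG5 (-0.51 and 0.29). For DPM1 the NODAL difference exceeded that in E7 by 1.00 (SE 0.185, limma adjusted p = 0.0383). This interaction kept its direction in each of the 16 single-library fits (0.90 to 1.09) but its call in 5. It was called without replicate 1 of E7 or without any 1 Activin A library, and not without any other library, with adjusted p up to 0.203.

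The 13 genes that assemble the lipid-linked oligosaccharide gave 5 calls higher and 1 lower on average. That is 38.5% and 7.69% of them, beside 19.2% and 19.4% of all genes. DPAGT1, which starts the chain by moving GlcNAc-phosphate to dolichol and is the target of tunicamycin, rose by 0.24 (log2, adjusted p = 0.00137). The mannosyltransferases ALG1, ALG2, ALG3 and ALG12 rose by 0.22, 0.18, 0.40 and 0.31. ALG6, which adds the first glucose, fell by 0.27 (adjusted p = 0.00404), whereas ALG5, which makes dolichol-phosphate glucose, and ALG8, which adds the second glucose, had -0.05 and 0.11, not called (limma adjusted p = 0.653 and 0.0885). ALG13, ALG14, ALG11, ALG9 and ALG10 were not called either, at 0.01 to 0.29. The ALG1 call was lost without replicate 2 of E7+2DG, replicate 1 of E7+TGFb or replicate 2 of E7+NODAL+2DG, and the ALG2 call without replicate 1 of E7+TGFb, with highest adjusted p of 0.057 and 0.051. ALG11 shares 4100 exon bases with UTP14C on the same strand, and ALG10 has a near-identical copy, ALG10B, so their values are uncertain. In all, 13 members share exon bases with another gene of the table, 4 of them on the same strand.

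ALG3 adds the first mannose from dolichol-phosphate mannose (chromosome 3, 184242301 to 184249548, minus strand). It was 425 and 463 normalised reads in E7 and 589 and 635 in E7+2DG. It was 395 and 354 in E7+TGFb, and 593 and 521 in E7+TGFb+2DG. The pairs were 472 and 314 against 386 and 472 with Activin A, and 417 and 397 against 540.3 and 537 with NODAL. The libraries with 2DG were higher in 3 media, and the Activin A pairs overlapped. ALG3 rose by 0.46 in E7 and 0.57 with TGFb (limma adjusted p = 0.0465 and 0.0415), but both calls were kept only without an Activin A library (adjusted p up to 0.182 and 0.258 without others). Both were also lost with quantile normalization, and the E7 call with TMM factors. The averaged rise of 0.40 (SE 0.0815, adjusted p = 0.00191) was called in all 16. ALG12, the mannosyltransferase with the ERSE match shown above, rose by 0.65 in E7 (adjusted p = 0.0156), where it had 138 and 100.5 normalised reads without and 183 and 187 with 2DG. That call was lost without replicate 2 of E7 or either library of E7+2DG (adjusted p up to 0.187). Its averaged call (adjusted p = 0.0154) held without any 1 library. ALG12 shares 168 exon bases with CRELD2 on the opposite strand, and CRELD2 rose by 0.31 on average (limma adjusted p = 0.0101).

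Of the 9 oligosaccharyltransferase members 6 were called higher on average and 1 lower (66.7% and 11.1%), beside 19.2% and 19.4% of all genes. Of 3 further subunit genes outside the member list, 0 were called higher and 1 lower. STT3A is the catalytic subunit that glycosylates proteins as they enter the endoplasmic reticulum (chromosome 11, 125591712 to 125625215, plus strand). It was 3340.4 and 3138 normalised reads in E7 and 4752 and 4909.8 in E7+2DG. It was 3574 and 3664 in E7+TGFb, and 4933 and 4815 in E7+TGFb+2DG. The pairs were 3243 and 3629 against 4132 and 4710.0 with Activin A, and 2781 and 2632 against 3929.9 and 3927 with NODAL. All 8 libraries with 2DG lay above all 8 without it. STT3A rose by 0.58 in E7 (log2, SE 0.0885, limma adjusted p = 0.000809), 0.43 with TGFb (adjusted p = 0.00899) and 0.54 with NODAL (adjusted p = 0.00347). With Activin A the difference was 0.36 (adjusted p = 0.0576). Averaged, the rise was 1.39-fold (log2 0.48, SE 0.0443, adjusted p = 4.92e-06), the smallest p among the members. The call in E7 held without any 1 library, and those with TGFb and with NODAL in 12 and 14 of the 16 single-library fits, with adjusted p up to 0.0888 and 0.0631. The TGFb call was lost without any 1 of the 4 libraries of its own comparison, and the NODAL call without replicate 2 of E7+NODAL or replicate 1 of E7+NODAL+2DG. STT3A shares 80 exon bases with CHEK1 on the same strand, and CHEK1 had an averaged difference of -0.07 (limma adjusted p = 0.185).

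STT3B, the other catalytic subunit, which acts on sites that STT3A skips, rose by 0.12 (adjusted p = 0.0158), with 4219 to 4794 normalised reads with 2DG and 3596 to 4552 without. The shared subunits RPN1, RPN2 and DDOST rose by 0.21, 0.13 and 0.17, and MAGT1, an oxidoreductase subunit that works with STT3B, by 0.26 (limma adjusted p = 0.00163, 0.0218, 0.00534 and 0.00112). The RPN2 call was lost without replicate 2 of E7+2DG, replicate 2 of E7+TGFb, replicate 2 of E7+TGFb+2DG or replicate 1 of E7+NODAL+2DG (adjusted p up to 0.0665). TUSC3, the alternative to MAGT1, had -0.12 and the small subunit OSTC had 0.11, neither called (adjusted p = 0.0589 and 0.234). DAD1, a small subunit of every complex, was the member that fell, by 0.46 (SE 0.106, adjusted p = 0.00395). It had 719 to 1146 normalised reads with 2DG and 949.9 to 1677 without. In E7 alone DAD1 fell by 0.82 (adjusted p = 0.0114), a call lost without replicate 2 of E7 or replicate 1 of E7+2DG (adjusted p up to 0.127).

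**Figure D3:**
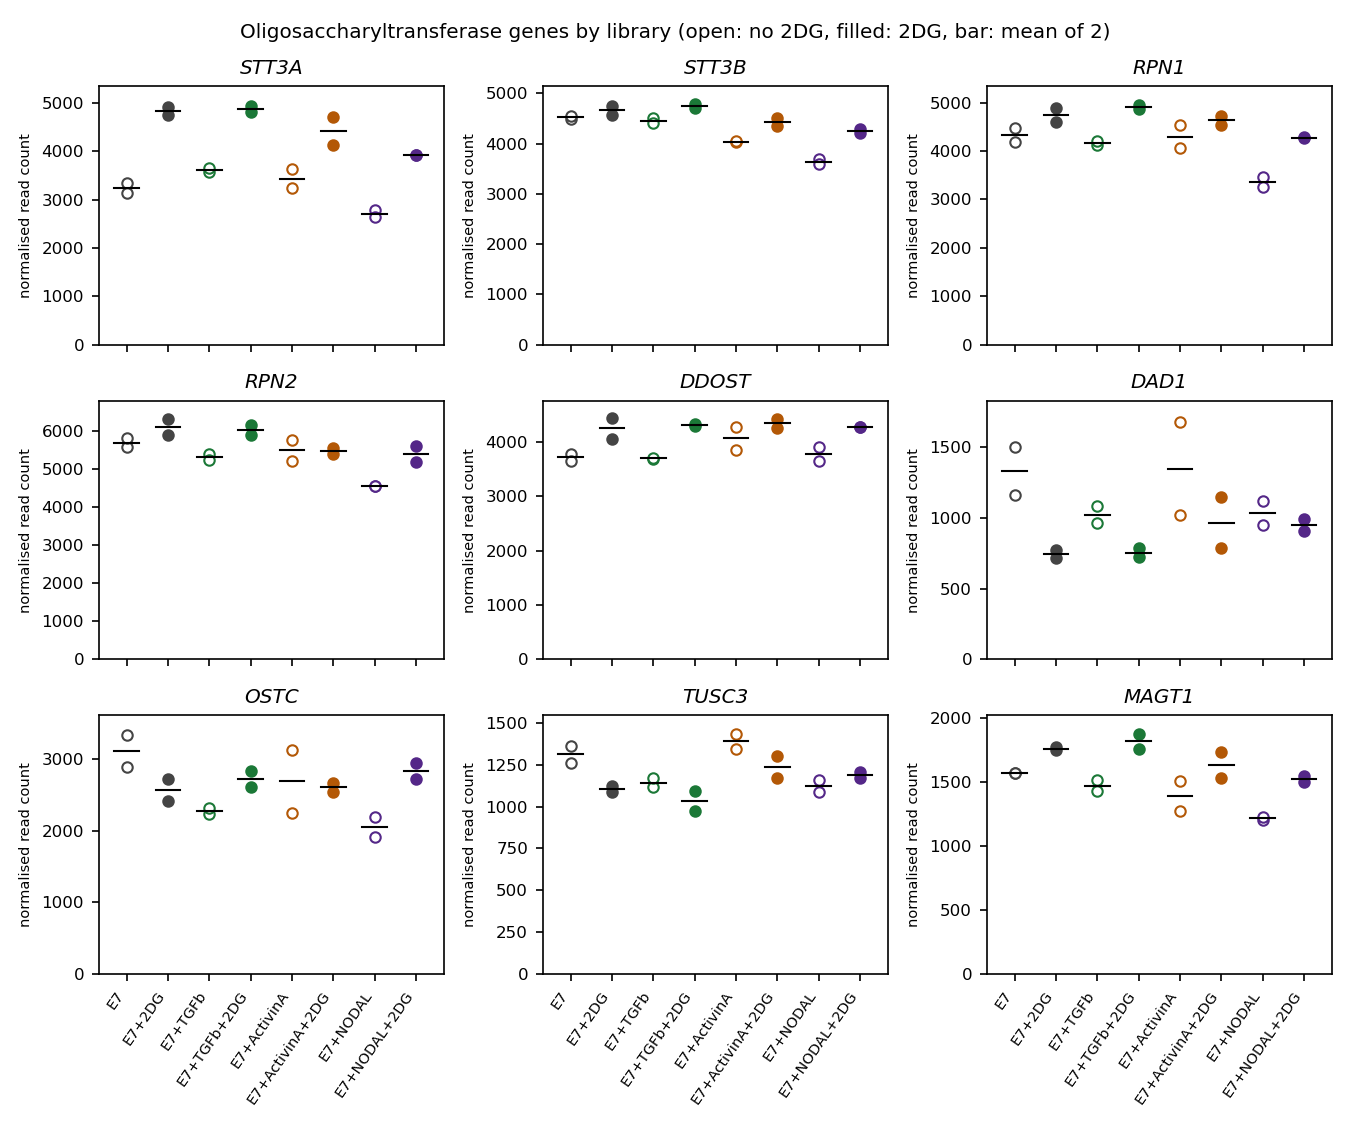
Normalised read counts (vertical, from 0) of the 9 oligosaccharyltransferase genes in the 16 libraries by group (horizontal), open without and filled with 2DG, the bar being the mean of 2. STT3A is higher with 2DG in every medium, DAD1 lies mostly lower, and every gene but DDOST has its lowest open point in E7+NODAL.

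Among the 6 trimming genes, 3 were called higher on average and none lower, beside 19.2% and 19.4% of all genes. UGGT2, a sensor that adds glucose back to misfolded glycoproteins, rose by 0.26 (adjusted p = 0.011). GANAB, the catalytic subunit of glucosidase II, rose by 0.13, and MOGS, glucosidase I, by 0.12 (limma adjusted p = 0.0272 and 0.0436). With NODAL both lay lower with 2DG without overlap of the pairs, GANAB at 7528 and 7444 against 7801 and 8036 normalised reads and MOGS at 647 and 687 against 726 and 742. Those log2 differences of -0.08 and -0.14 were not called (limma adjusted p = 0.648 and 0.412). The GANAB call was kept in 8 of the 16 single-library fits, those without replicate 1 of E7, replicate 1 of E7+2DG, replicate 2 of E7+TGFb+2DG, replicate 2 of E7+NODAL or an Activin A library (adjusted p up to 0.077 in the others). The MOGS call was kept in 4, those without replicate 1 of E7, either library of E7+ActivinA or replicate 1 of E7+ActivinA+2DG (adjusted p up to 0.106), and was lost with TMM factors, quantile normalization or DESeq2. The sensor UGGT1 and the mannosidases MAN1B1 and MAN1A2 had 0.15, 0.09 and 0.07, not called. The 2 Golgi enzymes that branch trimmed glycans, MGAT1 and MGAT2, had -0.09 and 0.17, also not called, and MGAT2 was low at 11.3 to 28.4 normalised reads.

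Per kilobase of exon, the members spanned a wide range of levels. In libraries without 2DG the medians were highest for RPN2 (1882 normalised reads per kilobase), GANAB (1574), OSTC (1409), DDOST (1378) and DAD1 (1364). They were lowest for MGAT2 (7.02), ALG14 (9.24), ALG9 (11.2) and ALG11 (14.2). The 2 catalytic subunits stood at 445 for STT3A and 843 for STT3B without 2DG, and at 639.9 and 906 with it. These levels divide by all exons annotated in GENCODE 29, used or not.

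In single media the members' calls were fewer, and so were those of all genes. In E7 8 members were called higher and 5 lower, 17.8% and 11.1% of them, beside 14.6% and 14.8% of all genes. With TGFb the counts were 5 and 1, beside 5.47% and 4.37% of all genes. With Activin A they were 1 and 0, beside 1.48% and 0.221%, and with NODAL 4 and 0, beside 3.11% and 2.76%. GFPT1 (E7, TGFb, Activin A) and STT3A (E7, TGFb, NODAL) were called higher in 3 media, ALG3 was called higher in 2 and UAP1 lower in 2. The members' median log2 differences were 0.13, 0.13, 0.11 and 0.22 in E7, TGFb, Activin A and NODAL, and those of all genes lay between -0.005 and 0.004.

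These single-medium counts moved with single libraries. In each case below the count over all genes moved in the same direction. For E7, 13 members in all became 4 without replicate 2 of E7, 6 and 7 without replicates 1 and 2 of E7+2DG, and 20 without either library of E7+ActivinA. For TGFb, 6 became 1 without either library of E7+TGFb or without replicate 2 of E7+TGFb+2DG, 0 without replicate 1 of the latter, and 12 without either library of E7+ActivinA. For Activin A, 1 became 14 without replicate 2 of E7+ActivinA, 4 without replicate 1 of E7+ActivinA+2DG, and 0 without any other. For NODAL, 4 became 0 or 1 without any 1 library of its comparison, 2 without either library of E7+TGFb or replicate 2 of E7+TGFb+2DG, and 13 without either library of E7+ActivinA.

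**Figure D4:**
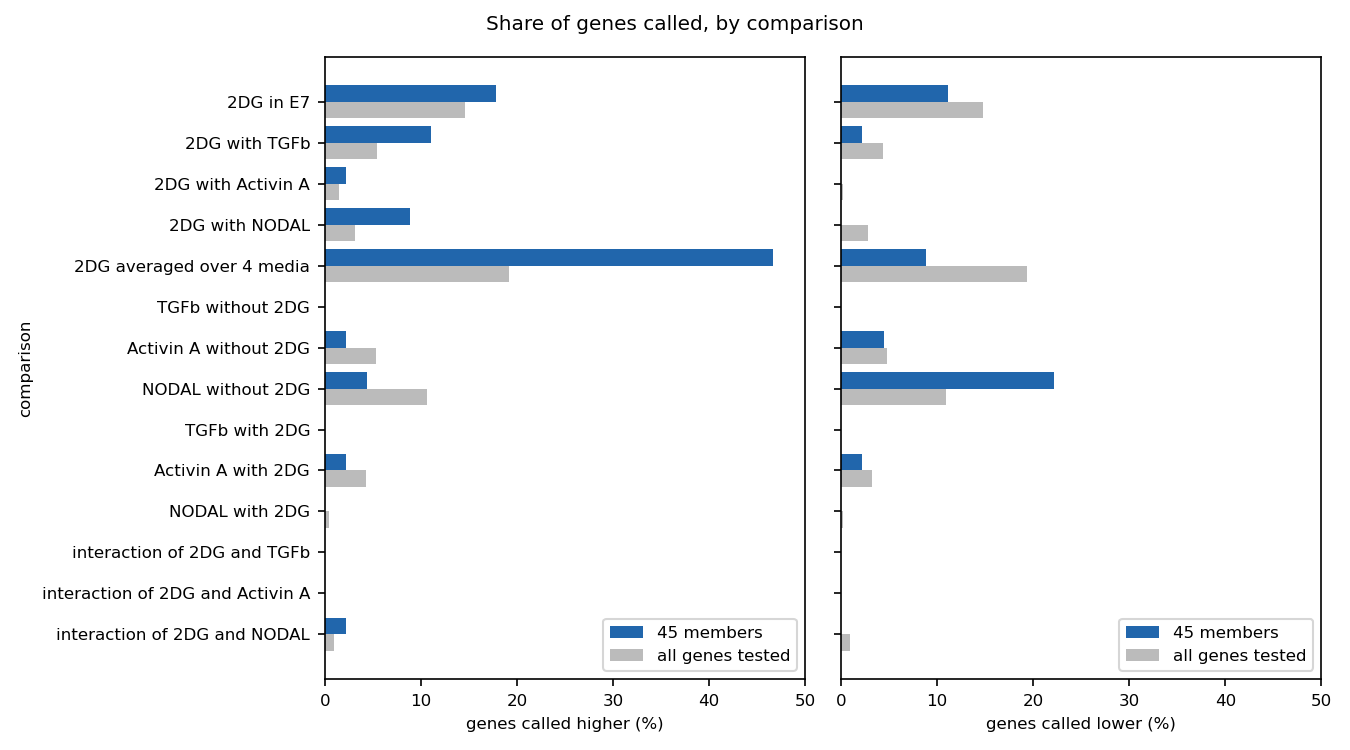
Share of genes called higher (left) and lower (right), in percent (horizontal), for the 45 members in blue and all genes tested in grey, in each of the 14 comparisons (vertical). The widest gap is for 2DG averaged over 4 media, with 46.7% of members and 19.2% of all genes called higher.

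The added ligands were also compared with E7, to see whether they alone moved these genes. All of these comparisons, and those of 2DG in E7, share the E7 or the E7+2DG libraries. NODAL without 2DG gave the most calls, 2 members higher and 10 lower, beside 10.6% and 10.9% of all genes. The members' median log2 difference was -0.20, and that of all genes was 0.01. Of 9 oligosaccharyltransferase genes, OSTC (-0.60), MAGT1 (-0.37), RPN1 (-0.36), RPN2 (-0.32) and STT3B (-0.31) were called lower and none higher. STT3A had -0.26 (limma adjusted p = 0.0516). OSTC was 2885 and 3332 normalised reads in E7 and 2187 and 1913 in E7+NODAL, and MAGT1 was 1571 and 1574 in E7 and 1205 and 1229.8 in E7+NODAL. The pairs were well separated for both genes. Of the chain-building genes ALG1 (-0.60), ALG8 (-0.54), ALG5 (-0.54) and ALG6 (-0.43) were called lower, ALG12 (0.66) higher, and DPM1 was lower by 0.79 (adjusted p = 0.00168). The glucosidase MOGS was higher by 0.45 (adjusted p = 0.00451).

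The balance of the NODAL calls depended on scaling. With every library set to the same total, the median of all genes moved from 0.011 to 0.134, and 6 members were called higher and 5 lower. Of all genes 3592 were called, beside 3601 in the main fit. ALG5, ALG6, STT3B, RPN2 and MAGT1 then lost their calls, so that of the 5 oligosaccharyltransferase genes RPN1 and OSTC kept theirs. With quantile normalization the members' counts were 3 and 8, beside 3160 of all genes. Fewer members were called without replicate 2 of E7 or without either library of E7+NODAL, and so were fewer of all genes. Without replicate 2 of E7, or without replicate 2 of E7+NODAL, only DPM1 and ALG8 remained called. Mitochondrial genes held 6.62 and 6.69% of reads in E7+NODAL and 5.66 and 5.53% in E7, and the part of this in the result was not tested.

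Activin A without 2DG gave 1 call higher, the mannosidase MAN1B1 (0.40), and 2 lower, ALG6 (-0.48) and DPM1 (-0.45), beside 5.28% and 4.74% of all genes. With equal totals it gave 3 and 1, with quantile normalization 1 and 1 and with edgeR 2 and 1. None was called without either library of E7, and more members were called without either library of E7+ActivinA. The count over all genes fell and rose with them. The ALG6 call was also lost without replicate 2 of E7+ActivinA. DPM1 was called without replicate 1 of E7+ActivinA or either library of E7+ActivinA+2DG and not without any other (adjusted p up to 0.296), nor with equal totals, quantile normalization or edgeR. TGFb without 2DG gave 0 calls among the members by limma, edgeR or DESeq2. Of all genes limma called 0% higher and 0% lower, edgeR called 0 and DESeq2 called 213. At an unadjusted p under 0.05 there were 11 members and 3771 of all 16714 genes. Without replicate 1 or 2 of E7+ActivinA limma called 11 members, beside 3341 or 3350 of all genes.

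In the presence of 2DG the ligands gave few calls. TGFb gave 0 by limma, edgeR or DESeq2, beside 0% and 0% of all genes in limma, and at an unadjusted p under 0.05 there were 1 member and 273 of all genes. Activin A gave MGAT1 higher (0.41) and ALG13, a subunit of the second GlcNAc transferase, lower (-0.54), beside 4.27% and 3.25%. With quantile normalization only ALG13 was called. The count of 2 became 0 and 1 without replicates 1 and 2 of E7+2DG. Without replicate 1 of E7+ActivinA+2DG both calls were lost and 1 other member was called. NODAL gave 0 by limma, edgeR or DESeq2, beside 0.425% and 0.209% of all genes in limma, and at an unadjusted p under 0.05 there were 10 members and 2795 of all genes. For NODAL limma called 4 members without replicate 1 or 2 of E7+ActivinA, beside 1767 or 1755 of all genes, and 1 without either library of E7+ActivinA+2DG.

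Whether a ligand changed the response to 2DG was tested as an interaction. With TGFb 0 members were called by limma, edgeR or DESeq2, beside 0% and 0% of all genes in limma, and 5 members and 2023 of all genes had an unadjusted p under 0.05. With Activin A 0 were called by the same 3 tools, beside 0.0419% and 0% in limma, and 4 members and 1650 of all genes had an unadjusted p under 0.05. These counts became 2 for TGFb without replicate 1 or 2 of E7+ActivinA, beside 1235 or 1232 of all genes, and 6 for Activin A without replicate 1 of E7+ActivinA, beside 2146. With NODAL DPM1 was the 1 call, higher, beside 0.987% and 0.885% of all genes, and 14 members and 4341 of all genes had an unadjusted p under 0.05. Just outside the threshold were ALG8 (0.54, limma adjusted p = 0.0535), MOGS (-0.49, adjusted p = 0.0535), OSTC (0.74, adjusted p = 0.0539) and ALG5 (0.80, adjusted p = 0.0569). DESeq2 called 4 higher and 3 lower, beside 1684 of all genes, and equal totals gave 1 and 1, beside 393. The main fit called 313 of all genes. In limma 11 were called without replicate 1 or 2 of E7+ActivinA, beside 3890 or 3887 of all genes, 5 without either library of E7+ActivinA+2DG, 2 without replicate 1 of E7 and 0 without any other library.

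Exon length moved with several of these differences. Across genes, Spearman's rho between the log2 difference and exon length was 0.31 over 16352 genes and 0.51 over the 45 members for 2DG in E7. With TGFb it was 0.01 and 0.14, with Activin A 0.32 and 0.42, with NODAL -0.11 and -0.03, and averaged 0.19 and 0.37. Without 2DG it was 0.42 and 0.59 for TGFb, 0.13 and 0.44 for Activin A and 0.22 and 0.45 for NODAL. In the presence of 2DG it was -0.12 and 0.07, -0.03 and 0, and -0.31 and -0.31 in the same order, and for the interactions -0.38 and -0.50, -0.15 and -0.38, and -0.38 and -0.51. The points of each rho share the same libraries and size factors. DPM3, DAD1 and DPM1 have the shortest exon lengths among the members, 622, 808 and 1207 bases, and had the 3 lowest log2 differences with 2DG in E7 (-0.64, -0.82 and -0.78, DPM3 not called), while GFPT1 and OGT have 8866 and 9812 bases. The part of length in these results was not tested.

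**Figure D5:**
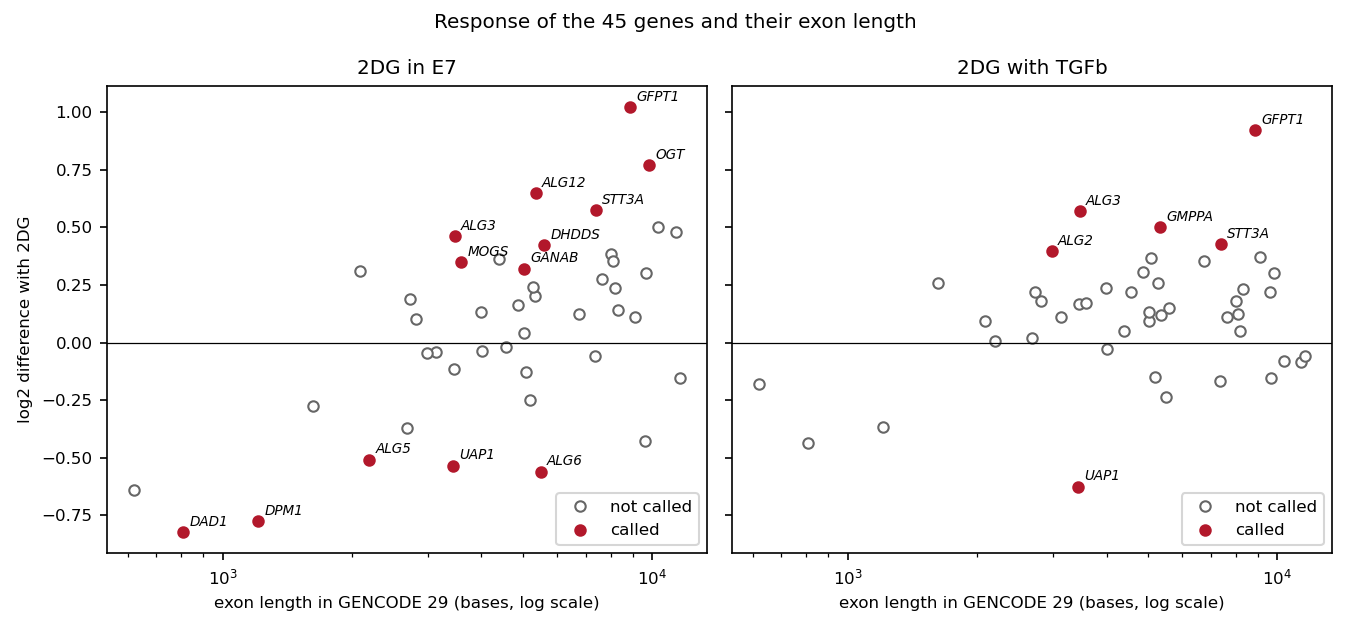
Log2 difference with 2DG (vertical) against exon length in bases (horizontal, log scale) for the 45 genes in E7 (left) and with TGFb (right), filled red and named where called. In E7 the short genes DAD1 and DPM1 lie lowest and GFPT1 and OGT highest, and with TGFb GFPT1 and UAP1 mark the ends.

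Other genes of the pathway were listed by role, and 57 of them were in the table. Averaged over the media, 15 were called higher and 11 lower with 2DG (26.3% and 19.3%), beside 19.2% and 19.4% of all genes, with a median of -0.01. The lectin chaperones and trimming genes had 9 of 16 called higher and 3 lower. EDEM1 and EDEM2, which mark misfolded glycoproteins for disposal, rose by 0.68 and 0.52. PRKCSH, the partner of GANAB in glucosidase II, rose by 0.62 (limma adjusted p = 4.52e-06) and the lectin chaperone CANX by 0.57. PRKCSH was 2745 and 2819 normalised reads in E7 and 4424 and 5161 in E7+2DG, and its pairs did not overlap there. The Golgi endomannosidase MANEA fell by 0.37. Of 4 sialic acid genes 3 fell, among them CMAS, which activates sialic acid (-0.51), and GNE, which makes its precursor from UDP-GlcNAc (-0.47). OST4, a small oligosaccharyltransferase subunit, fell by 0.45 on average and by 0.88 in E7, from 951 and 1103 normalised reads to 549 and 566 (limma adjusted p = 0.00869). With NODAL its log2 difference was 0.02 (adjusted p = 0.976).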

How the data were processed

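RNA was measured by paired-end sequencing of polyadenylated RNA. Each deposited value is a signal: the authors divided the gene's read count by a size factor of the library. Tools named in the submitters' processing notes, without roles, are STAR, Trimmomatic 0.36, DESeq2 1.26.0 and featureCounts 1.5.3, and the build is hg38; the annotation release, strand setting and gene filter are not given in the sources used here. Whole reads were recovered for 100% of values (tolerance 1e-06).

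The filter required 10 or more in 2 or more libraries (16714 genes). In R 4.3.3, limma 3.58.1 with a trend on mean level fitted log2 of the value plus 1 to 8 group means over 16 libraries, which share 1 estimate of spread. Log2 differences are on that scale. From this fit 14 contrasts were taken. Two-sided p-values were adjusted by Benjamini-Hochberg over all genes of a contrast and called under 0.05. SE is the fit's standard error. The code was tested on simulated data.

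Members and lists were chosen with earlier results of these data known. Any member could be named. Every library's value is given for members called in 1 direction in at least 2 media with an absolute log2 difference of at least 0.5 in 1 of them, or called in an interaction; some others have single-medium values, chosen after their values were seen. Of other pathway genes, up to 4 per direction with the largest averaged change were named, and neighbours that share exon bases were named for that overlap. Marker lists covered stem cells, fibroblasts, neuroectoderm, mesendoderm and trophoblast. Positions and exon lengths came from GENCODE 29, in which 17336 of 17738 symbols (97.7%) matched 1 gene. Promoters came from RefSeq. Alternatives were TMM factors, equal totals, quantile normalization, pseudocounts of 0.5 and 8, no filter, a mean of at least 50, only the contrast's libraries, no Activin A libraries, the replicate block, tests of the recovered reads by DESeq2 1.42.0 and edgeR 4.0.16, and each library left out, where a lone library is assumed to vary like the other groups.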

Additional observations from a re-analysis of the deposited data

Results flagged for a closer look

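The response of DPM1 to 2DG differed between the NODAL medium and E7 by 0.9984 on the log2 scale, by a test of the difference itself (limma adjusted p = 0.0383, range over the alternatives 3.4e-05 to 0.203). It was called in 16 of 28 alternatives, and the replicate block was among those that lost it. Both DPM1 values with 2DG were lower than both without it in E7, and higher in the NODAL medium. The NODAL rise by itself (log2 0.22) was not called. E7 had the highest group mean of DPM1, 1640 normalised reads, and E7+TGFb the next, 1214.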

How the results depend on the processing

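No member's called difference, in any of the 14 comparisons, changed sign under the alternatives run. The averaged count of 25 members stayed within 1.5 times under each (21 to 32 without 1 library, 24 with the replicate block, 30 without the Activin A libraries). With only the libraries of the contrast, the counts of members called with 2DG were 26 with TGFb, 0 with Activin A and 20 with NODAL; without 2DG they were 6 for TGFb and 0 for Activin A; with 2DG they were 1 for Activin A and 10 for NODAL; the interactions gave 3 with TGFb and 14 with NODAL. Without the 4 Activin A libraries, the counts were 22 for 2DG in E7, 18 with TGFb and 16 with NODAL, 13 for TGFb and 24 for NODAL without 2DG, 11 for NODAL with 2DG, and 6 and 16 for the interactions with TGFb and NODAL. A mean of at least 50 gave 2 for 2DG with Activin A, 5 for Activin A without 2DG and 5 for the NODAL interaction. DESeq2 gave 2 for 2DG with Activin A, 7 with NODAL and 7 for the NODAL interaction, beside 602, 1216 and 1684 of all genes. The main fit called 284, 982 and 313 of all genes in these comparisons. Quantile normalization gave 2 for 2DG with Activin A and 1 for Activin A with 2DG, beside 284 and 1271 of all genes. Equal totals gave 2 for the NODAL interaction, beside 393 of all genes. The counts over all genes moved in the same direction with only the libraries of the contrast and without the 4 Activin A libraries. The cause was not tested.

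Without 1 library, the counts ran from 4 to 20 for 2DG in E7, 0 to 12 with TGFb, 0 to 14 with Activin A and 0 to 13 with NODAL. Without 2DG they ran from 0 to 11 for TGFb, 0 to 13 for Activin A and 2 to 17 for NODAL, and with 2DG they were 0 for TGFb throughout, 0 to 3 for Activin A and 0 to 4 for NODAL. For the interactions they ran from 0 to 2 with TGFb, 0 to 6 with Activin A and 0 to 11 with NODAL.

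The replicate block gave 0 members for the NODAL interaction, where the DPM1 call was lost, and moved no other count by more than 1.5 times. It also lost the calls of ALG3 in E7 and with TGFb, PMM2 with NODAL, MOGS averaged and DPM1 for Activin A without 2DG and added GMPPB with NODAL. Replicate deviations of the groups correlated above 0.1 in 3 of 28 pairs of groups (r from -0.393 to 0.242), so the samples share only a number. Depth limits the members near 10 to 30 normalised reads most, such as MGAT2.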
